A study of Mus musculus with 2 samples.

Results

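The expression of 7 genes by which blood vessels sense flow and set their tone was followed in limb muscle of aging mice. They are the transcription factors Klf2 and Klf4, the endothelial nitric oxide synthase Nos3, the peptide endothelin-1 (Edn1), its receptors Ednra and Ednrb, and thrombomodulin (Thbd). The genes were taken by symbol, and all 7 were found once among the 32285 genes of the expression matrices. Aging C57BL/6 mice received the drug Maraviroc (MVC) by intraperitoneal injection, or DMSO, its vehicle, as controls. Live mononuclear cells from limb muscle went into 1 droplet single-cell RNA-seq library for the DMSO group and 1 for the MVC group. How many mice each library pooled was not given in the sources used here. With 1 library per group no difference could be tested, and the 95% intervals given below cover counting error only, not the spread between mice.

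Laminar flow over an endothelial cell (EC) acts through mechanosensors and the MEKK3-ERK5-MEF2 kinase cascade to raise Klf2 and Klf4. These factors in turn are known to favour Nos3 and Thbd and to hold back Edn1, which gives a relaxed, anticoagulant vessel wall. Nitric oxide from Nos3 relaxes mural cells through cyclic GMP, while endothelin-1 contracts them through the receptor Ednra. Ednrb sits on endothelium, where it clears endothelin-1 and releases nitric oxide, and also on some mural cells. In muscle these signals set how much blood reaches the capillary bed.

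On GRCm38 the genes lie apart from each other: Klf2 (ENSMUSG00000055148, chr8:72319033-72321656, plus strand), Klf4 (ENSMUSG00000003032, chr4:55527143-55532466, minus strand), Nos3 (ENSMUSG00000028978, chr5:24364810-24384474, plus strand), Edn1 (ENSMUSG00000021367, chr13:42301476-42307990, plus strand), Ednra (ENSMUSG00000031616, chr8:77663031-77724464, minus strand), Ednrb (ENSMUSG00000022122, chr14:103814625-103844402, minus strand) and Thbd (ENSMUSG00000074743, chr2:148404466-148408188, minus strand). RefSeq promoters (build GRCm38.p6) were matched for 5 of the 7 genes, not for Nos3 and Thbd. The 250 bases before the RefSeq start are shown 5′ to 3′ for Klf2 and Klf4, whose ratios between the libraries lay on the same side of 1 in capillary, arterial and SMC-like cells, and for Edn1, the arterial gene of the set. Capitals mark matches, on either strand, to 5 short motifs. CACCC is the core letter run of sites for Kruppel-like factors. GAGACC is known as a shear-stress response element. The AP-1 motif was searched as TGANTCA and the MEF2 motif as TATTTATA. The motif of GATA factors was searched as AGATAA.
Klf2, chr8:72318812-72319061, plus strand: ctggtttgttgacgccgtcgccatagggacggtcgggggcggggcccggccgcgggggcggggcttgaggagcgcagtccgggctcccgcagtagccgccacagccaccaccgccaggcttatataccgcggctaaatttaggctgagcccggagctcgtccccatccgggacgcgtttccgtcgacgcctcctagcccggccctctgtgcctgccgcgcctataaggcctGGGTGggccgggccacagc
Klf4, chr4:55532476-55532725, minus strand: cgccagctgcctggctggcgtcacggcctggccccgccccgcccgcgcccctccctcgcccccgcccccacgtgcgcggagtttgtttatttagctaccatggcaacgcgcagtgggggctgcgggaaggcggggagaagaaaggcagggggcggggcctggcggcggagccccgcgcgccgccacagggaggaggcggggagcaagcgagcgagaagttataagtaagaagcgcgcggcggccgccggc
Edn1, chr13:42301226-42301475, plus strand: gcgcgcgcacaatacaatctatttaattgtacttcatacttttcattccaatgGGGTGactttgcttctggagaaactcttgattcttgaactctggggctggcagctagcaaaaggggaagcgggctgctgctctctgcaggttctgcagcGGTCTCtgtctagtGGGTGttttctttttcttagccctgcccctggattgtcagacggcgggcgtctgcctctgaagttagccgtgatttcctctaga
The Edn1 stretch held 2 CACCC matches, which start 197 and 84 bases before the RefSeq start, and 1 GAGACC match 98 bases before it. The Klf2 stretch held 1 CACCC match, 19 bases before the RefSeq start and inside the gene as GENCODE draws it. The Klf4 stretch held none of the 5 motifs. CACCC occurs in 52.0% of all 32851 promoter windows of this length and GAGACC in 13.7%, so these matches are a description of the sequence and not evidence of binding. The AP-1 motif occurs in 6.75%, the MEF2 motif in 1.56% and the GATA motif in 9.99% of the windows. The Klf2 and Klf4 stretches were rich in G and C (71.2% and 74.0%), and the Edn1 stretch less so (50.4%).

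Barcodes with 500 detected genes or more, and with no more than 10% of their UMIs (unique molecular identifiers, 1 per captured RNA molecule) from mitochondrial genes, were taken as cells, 5437 from the DMSO and 5454 from the MVC library, with a median of 5802 and 5195 UMIs. Blood EC-like cells numbered 2229 and 1898 in the DMSO and MVC libraries, of which 1542 and 1275 were capillary-like, 312 and 321 arterial-like and 242 and 218 venous-like. There were 75 and 79 lymphatic EC-like, 250 and 239 pericyte-like, 121 and 81 SMC/pericyte-like (a cluster that carried markers of both mural types) and 61 and 47 smooth muscle (SMC)-like cells. Levels are UMIs per 1000000 UMIs of the class and library (CPM), and the DMSO value is given before the MVC value throughout. Among the libraries' barcodes 9 were shared.

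Most single markers read were highest among the vascular classes where the names place them, with limits in the mural classes. Gja4, listed as an arterial marker, was not highest in arterial-like cells in the DMSO library. It was at 122 and 116 CPM in arterial-like and at 218 and 79.4 CPM in pericyte-like cells. Gja5, an arterial connexin, was at 143 and 78.9 CPM in arterial-like and 1.78 and 2.12 CPM in capillary-like cells. Selp, an adhesion molecule of veins, was at 9359 and 10232 CPM in venous-like cells, and Prox1, the lymphatic regulator, at 995 and 894 CPM in lymphatic-like cells. Rgs5 marked pericyte-like cells at 9235 and 6679 CPM, and Acta2, smooth muscle actin, SMC-like cells at 5094 and 4482 CPM. The SMC/pericyte-like class was not the same mixture in both libraries, since its Acta2 stood at 582 and 1811 CPM. The endothelial gene Cldn5 was at 54.0 and 212 CPM in SMC-like cells, where all 10 of the EC markers were detected, and these summed to 3257 and 4409.8 CPM. They summed to 2627 and 1973 CPM in pericyte-like and 1791 and 1508 CPM in SMC/pericyte-like cells against 19363 and 13027 CPM in blood EC-like cells, again with all 10 detected in each library. The part of such endothelial RNA in the mural values was not tested. Capillary markers summed to 20725 and 13401 CPM in capillary-like cells, with all 11 detected in both libraries, and the part of this difference in the capillary ratios below was not tested.

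Klf2 was highest in capillary ECs of all named classes in both libraries. Its level in capillary-like cells was 978 CPM (95% interval 954 to 1003) in the DMSO and 854 CPM (95% interval 827 to 883) in the MVC library. Arterial-like cells had 440.2 CPM in the DMSO library and 622 CPM in the MVC library. Venous-like cells had 175 CPM in the DMSO library and 209 CPM in the MVC library, so the capillary level stood 5.60-fold (5.03 to 6.26) above the venous level in the DMSO and 4.09-fold (3.65 to 4.58) above it in the MVC library. The order capillary, arterial, venous held in both libraries with intervals that did not overlap. Lymphatic-like cells, at 251 and 266 CPM, lay above the venous cells, with intervals that overlapped in the MVC library. SMC-like cells held 505 and 236 CPM, while pericyte-like (126 and 98.3 CPM) and SMC/pericyte-like cells (64.5 and 61.5 CPM) were below each endothelial class. Klf2 is also a quiescence factor of lymphocytes, and B cell-like cells had 311 and 217 CPM and T/NK-like cells 372 and 246 CPM. Of the myeloid classes, neutrophil-like cells had 443 and 338 CPM and macrophage/monocyte-like cells 387 and 349 CPM.

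Klf4 was spread more widely than Klf2. Capillary-like cells had 749 and 590.3 CPM, lymphatic-like cells 663 and 782 CPM and SMC-like cells 744 and 350.1 CPM. Arterial-like (322 and 425 CPM) and venous-like cells (332 and 287 CPM) were lower and did not differ beyond counting error in the DMSO library. Fibro-adipogenic progenitors (FAP-like cells), stromal cells outside the vessel, had 664 and 429 CPM and supplied 43.4% and 42.2% of all Klf4 UMIs in the 2 libraries, while blood EC-like cells supplied 30.8% and 28.3%. For Klf2 the shares were 55.3% and 50.7% from blood EC-like cells. Klf4 was lowest among vascular classes in pericyte-like cells, at 125 and 136 CPM. A Klf4 UMI was found in 53.3% (50.7 to 56.0) and 49.3% (46.1 to 52.5) of capillary-like cells once each cell was thinned to 2000 UMIs, against 4.93% and 7.78% of B cell-like cells, which carry little Klf4. The shares without thinning were 64.7% and 56.5% at median depths of 3480 and 3133 UMIs, and 10.1% and 22.1% at 5088 and 5334 UMIs.

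**Figure D1:**
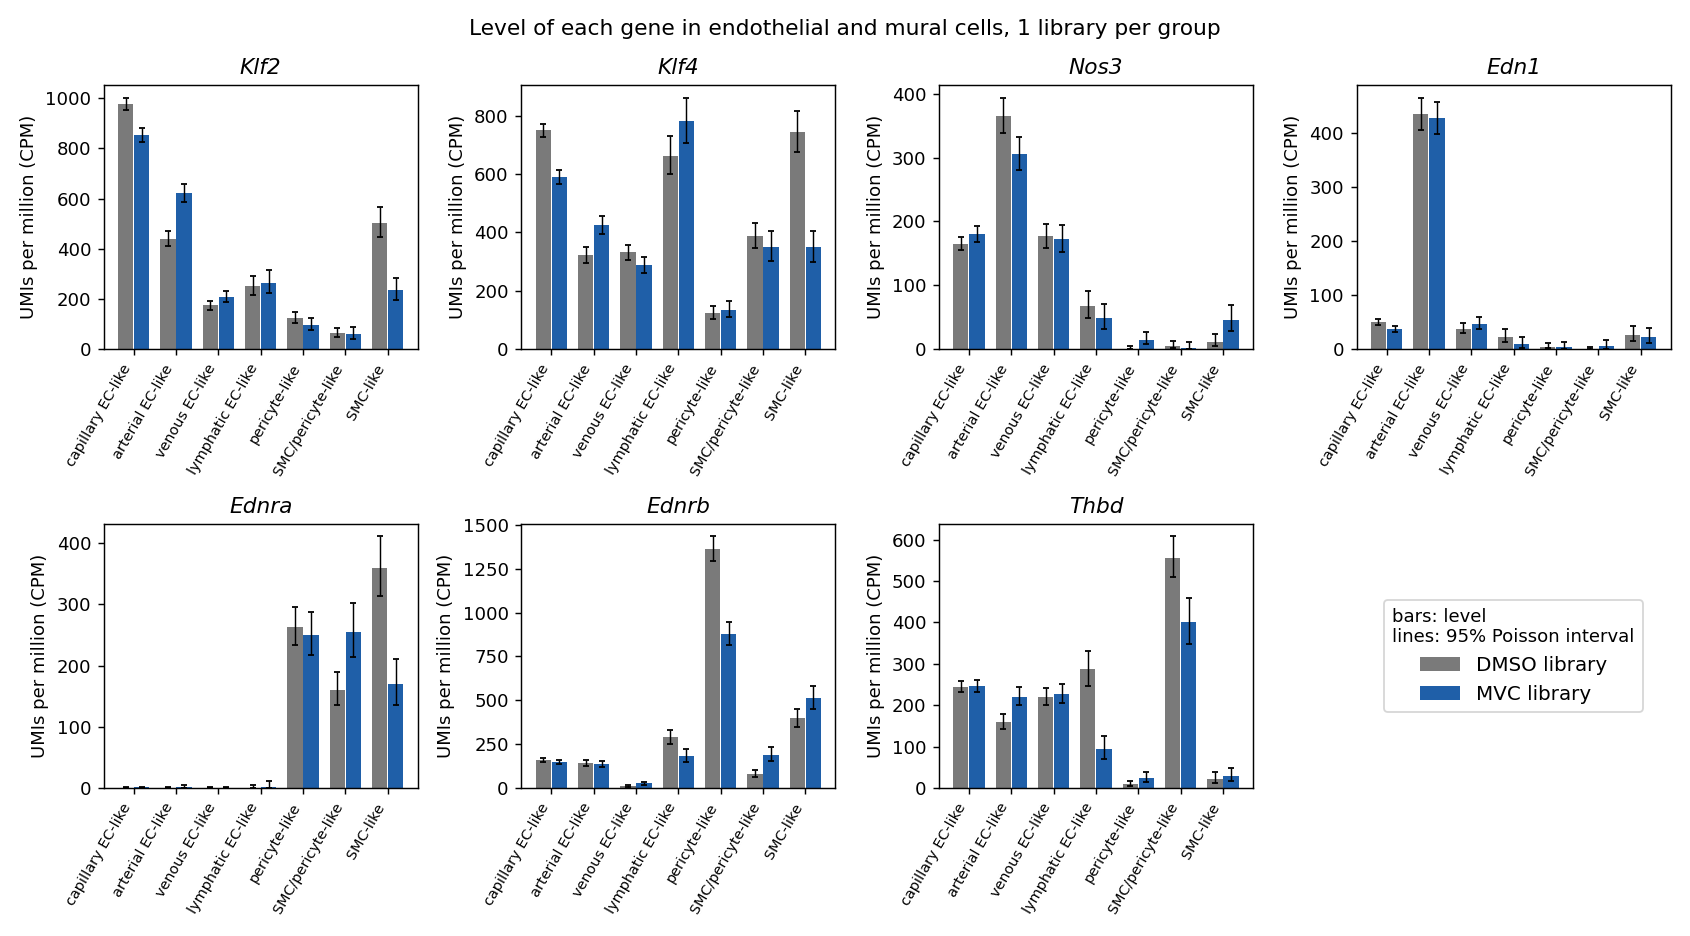
Level of each gene (y axes, CPM, each starting at 0) in 7 endothelial and mural classes (x axes) in the DMSO (grey) and MVC (blue) libraries, 1 library per group. Bars give the level and lines its 95% Poisson interval. Klf2 is highest in capillary-like, Nos3 and Edn1 in arterial-like, Ednra in the mural and Ednrb in pericyte-like cells, and Thbd is highest in SMC/pericyte-like cells.

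Between the libraries, Klf2 and Klf4 were both lower in the MVC library in capillaries and both higher in arteries. In capillary-like cells the MVC level of Klf2 was 0.874 (95% counting interval 0.838 to 0.910) times the DMSO level, and that of Klf4 0.788 (95% counting interval 0.750 to 0.827) times. In arterial-like cells it was 1.41 (95% counting interval 1.29 to 1.55) times for Klf2 and 1.32 (95% counting interval 1.19 to 1.47) times for Klf4. The ratio in capillary-like cells divided by that in arterial-like cells was 0.618 (0.560 to 0.682) for Klf2 and 0.597 (0.531 to 0.671) for Klf4, both with 95% counting intervals below 1. In venous-like cells the ratio was 1.2 (1.03 to 1.40) for Klf2, whose log2 ratio of 0.26 was 0.80 without doublets, which is past the 1.5-fold mark used below. It was 0.866 (0.767 to 0.976) for Klf4 in the same cells, and in lymphatic-like cells 1.06 (0.836 to 1.33) for Klf2 and 1.18 (1.03 to 1.35) for Klf4. The lowest ratios of both were in SMC-like cells, at 0.468 (0.375 to 0.581) for Klf2 and 0.470 (0.393 to 0.562) for Klf4. There 3 cells held 29.8% of the DMSO and 51.7% of the MVC Klf2 UMIs. In pericyte-like cells Klf2 had a ratio of 0.782 (0.585 to 1.04) and Klf4 of 1.09 (0.840 to 1.42), both within counting error of 1. With the mixed doublet cluster counted as pericytes the log2 ratio of Klf2 there was 0.23 in place of -0.35. Klf2 was also within counting error of 1 in SMC/pericyte-like cells (0.953, interval 0.598 to 1.49), but without the 3 cells highest for it in each library its log2 ratio there was -1.13 in place of -0.07. With clusters drawn after centring each gene within its library the SMC value of Klf2 was -0.47 in place of -1.10, and in thinned cells the venous value of Klf4 was 0.02 in place of -0.21. Klf4 in SMC/pericyte-like cells had a ratio of 0.906 (0.753 to 1.09).

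Read against all genes, most of these ratios were not large. A ratio of at least 1.5 or at most 1/1.5 was counted over genes with at least 50 UMIs in the class, and 36 readings of the 7 genes in the 7 vascular classes reached that depth. In capillary-like cells 0 of 6 genes passed, with 16.7% of all genes passing, and in arterial-like cells 0 of 6, with 12.2%. In venous-like cells 1 of 6 passed (Ednrb), with 19.3%, in lymphatic-like cells 2 of 5 (Ednrb and Thbd), with 21.1%, and in pericyte-like cells 1 of 4 (Ednrb), with 17.9%. In SMC/pericyte-like cells 2 of 5 passed (Ednra and Ednrb), with 20.4%, and in SMC-like cells 3 of 4 (Klf2, Klf4 and Ednra), with 25.6%. Over all blood EC-like cells 0 of the 6 genes read passed, with 14.0% of all genes passing, and the 6 ratios ran from 0.846 (0.812 to 0.880) for Klf4 to 1.10 (1.01 to 1.19) for Edn1.

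**Figure D2:**
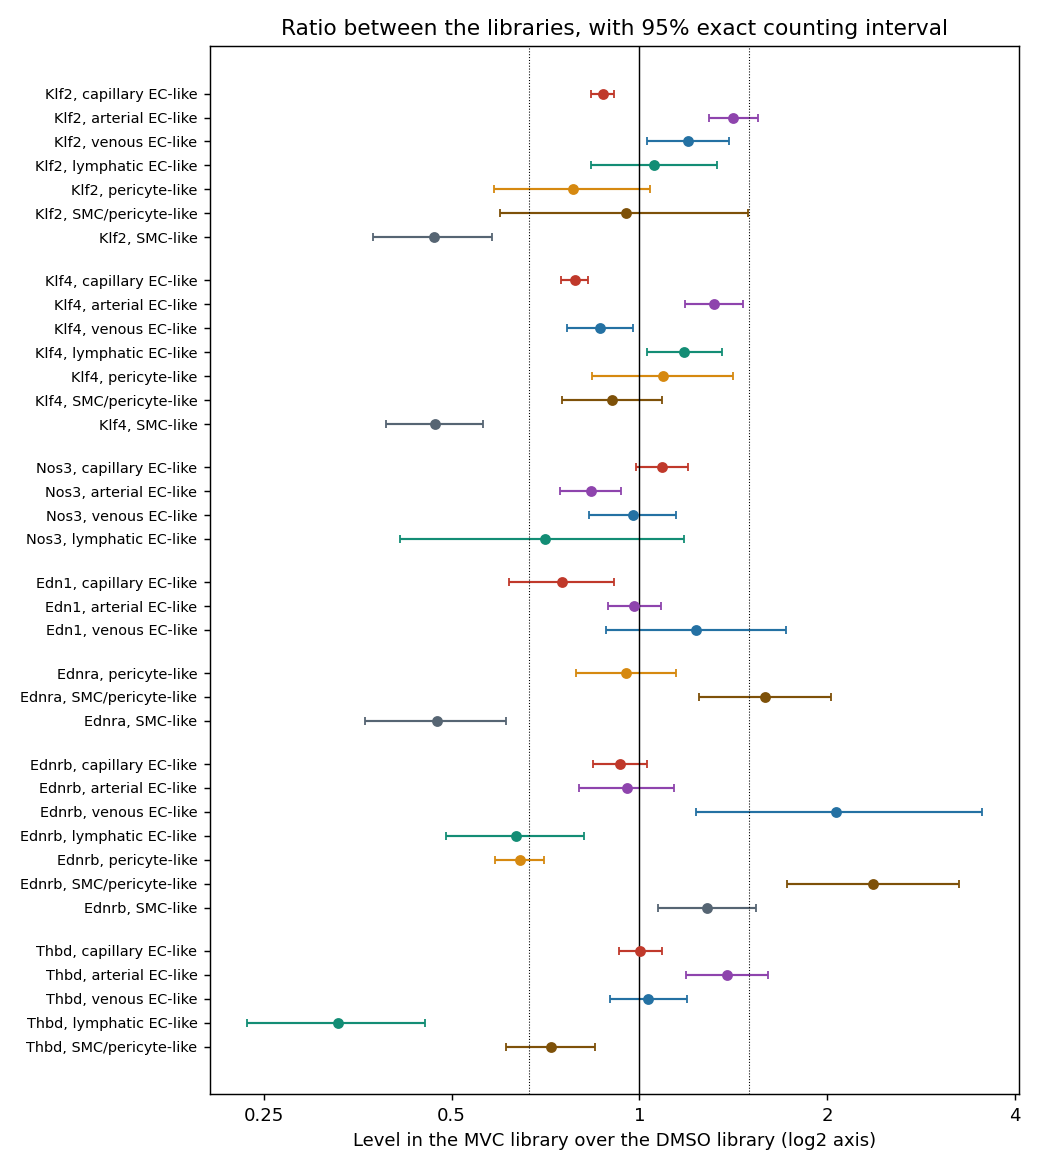
Level in the MVC library over that in the DMSO library (x axis, log2) for each gene and class with at least 50 UMIs over both libraries, with exact 95% counting intervals, 1 library per group. The solid line marks a ratio of 1 and dotted lines 1.5 and 1/1.5; Klf2, Klf4 and Thbd lie above 1 in arterial-like cells (1.41, 1.32 and 1.38), and Klf2, Klf4 and Ednra lie lowest in SMC-like cells (0.468, 0.470 and 0.473).

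Klf2 and Klf4 are also quickly induced when tissue is dissociated, so a list of 33 immediate early and heat shock genes known to respond to dissociation was read beside them. These genes summed to 58406 and 58206 CPM in capillary-like, 41977 and 52054 CPM in arterial-like, 25035 and 27089 CPM in venous-like and 53408 and 37604 CPM in pericyte-like cells. In arterial-like cells 9 of the 33 had a ratio of at least 1.5 and 0 a ratio of at most 1/1.5. Of all genes in these cells 12.2% were past either mark. The median log2 ratio of the list was 0.32 against 0.026 over all genes. Fos, a gene of the list, had 979.6 and 1729.9 CPM, a ratio of 1.77 (1.67 to 1.87). In capillary-like cells the counts were 2 higher and 1 lower, with a median of -0.013 (16.7% of all genes past either mark). In venous-like cells 7 of 33 were higher and 0 lower, with a median of 0.22 (19.3%). In lymphatic-like cells 6 of 32 were lower and 0 higher, with a median of -0.22 (21.1%). In pericyte-like cells 13 of 31 were lower and 0 higher, with a median of -0.51 (17.9%). SMC-like cells had 10 of 31 lower and 1 higher, with a median of -0.18 (25.6%). SMC/pericyte-like cells had 4 of 32 lower and 1 higher, with a median of -0.033 (20.4%).

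In capillary-like and arterial-like cells Klf2 and Klf4 were higher in the cells with the most dissociation-gene UMIs than in those with the fewest. When thinned capillary-like cells of both libraries were split into 4 groups (quartiles) by their summed dissociation-gene UMIs, Klf2 went from 469.7 CPM in the lowest quartile to 1833 CPM in the highest in the DMSO library and from 463 CPM in the lowest quartile to 1413 CPM in the highest in the MVC library. Klf4 went from 405 CPM in the lowest quartile to 1272 CPM in the highest in the DMSO library and from 289 CPM in the lowest quartile to 998 CPM in the highest in the MVC library. Arterial-like cells had the same order of ends, with Klf2 at 387 CPM in the lowest quartile to 869.6 CPM in the highest in the MVC library. Weighting both libraries to equal numbers of cells per quartile left the log2 ratio of Klf2 in capillary-like cells at -0.15 beside -0.20 unweighted, and that of Klf4 at -0.35 beside -0.34. In arterial-like cells the same weighting took Klf2 from 0.50 to 0.19 and Klf4 from 0.40 to -0.0082. By quartile, capillary Klf2 was at 947 CPM in the DMSO and 1049 CPM in the MVC library in the third quartile, so the MVC library was not the lower one in every quartile. Venous-like, lymphatic-like and pericyte-like cells shared this order of ends for both genes in both libraries, as did Klf2 in SMC-like cells. Klf4 in SMC-like cells did not. It went from 600.0 CPM in the lowest quartile to 333 CPM in the highest in the DMSO library, on 18 and 10 UMIs. In the MVC library it went from 409 CPM to 292 CPM, on 9 and 7 UMIs. Klf4 in SMC/pericyte-like cells rose in the DMSO library but went from 409 CPM to 375 CPM in the MVC library. The part of the dissociation genes in any ratio between the libraries was not tested.

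**Figure D3:**
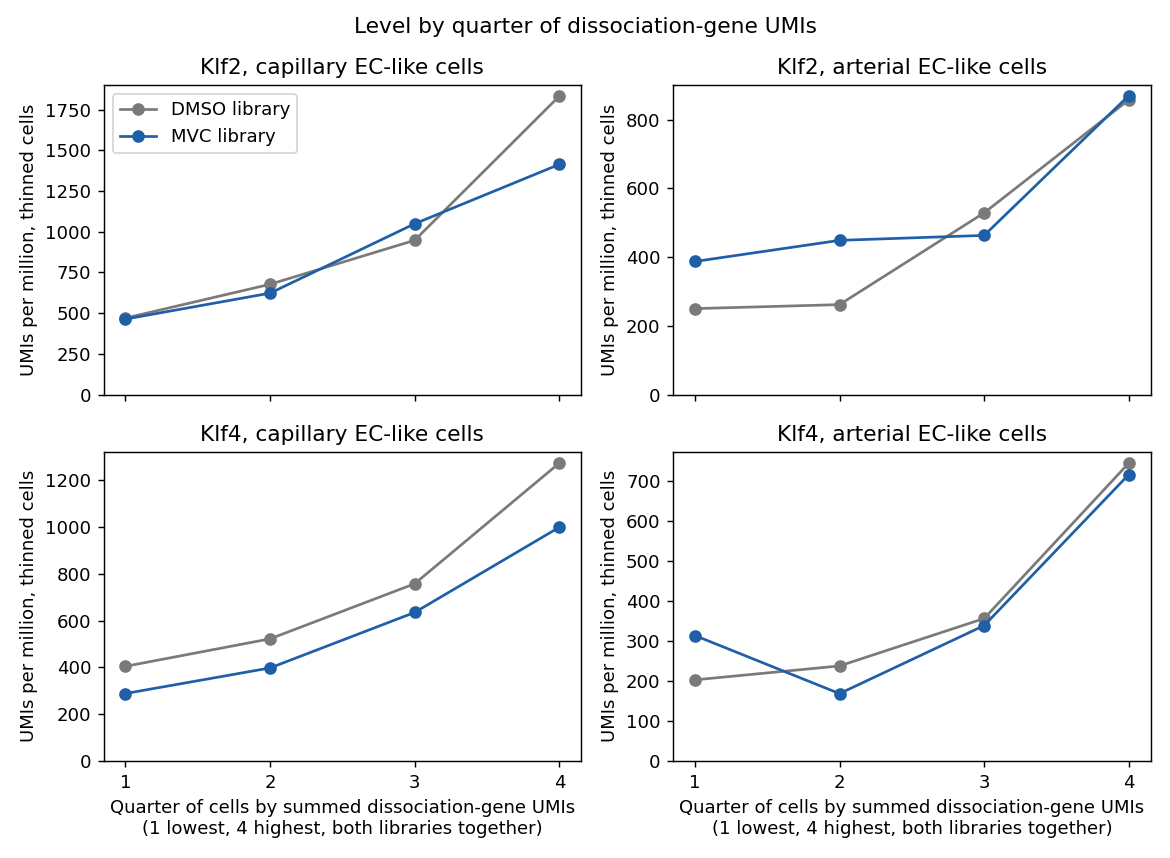
Level of Klf2 and Klf4 (y axes, CPM in cells thinned to 2000 UMIs) in quartiles of capillary-like and arterial-like cells ordered by their summed dissociation-gene UMIs (x axes), in the DMSO (grey) and MVC (blue) libraries. Each point is the mean over the cells of 1 library in that quartile; both genes are higher in the highest than in the lowest quartile of each class and library, and in the highest quartile of capillary-like cells Klf2 is at 1833 CPM in the DMSO and 1413 CPM in the MVC library.

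The capillary-like cells fell into 6 subclusters, drawn without the 7 genes, that the libraries filled unevenly. Subcluster 0 held 652 DMSO and 163 MVC cells, and subcluster 9, led by interferon-induced genes such as Ifit1 and Isg15, held 24 and 156. Klf2 spanned a wide range over the subclusters. It was at 344 and 269 CPM in subcluster 0, at 1685 and 1030.4 CPM in subcluster 1, at 1682 and 1144 CPM in subcluster 2, which was led by immediate early genes, and at 1749 and 1141 CPM in subcluster 3. These 4 subclusters all had the lower level in the MVC library. Subclusters 7 (922 and 1037 CPM) and 9 (255 and 409 CPM) had the higher level there, with intervals that overlapped. The DMSO level of subcluster 9 rested on 25 Klf2 UMIs. With subclusters given the same weight in both libraries, the log2 ratio of capillary Klf2 was -0.51 in place of -0.20, a larger difference than over the cells as they were.

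Klf4 was lower in the MVC library in 5 of the 6 capillary subclusters, most of all in subcluster 1 (989.7 and 519 CPM). Subcluster 9 was the exception, at 193 and 336 CPM, with 19 Klf4 UMIs in the DMSO library. The Klf4 intervals of the libraries overlapped in all capillary subclusters but 1 and 3. Of the 2 arterial subclusters, subcluster 5 carried the difference between the libraries in both factors, with Klf2 at 356 and 592 CPM and Klf4 at 222 and 410.1 CPM. Subcluster 6 had 583 and 663 CPM for Klf2 and 491 and 445 CPM for Klf4. The dissociation genes summed to 38211 and 43903 CPM in subcluster 5 and 48329 and 63056 CPM in subcluster 6. In capillary subclusters 0 and 1 they summed to 48890.5 and 50188 CPM and to 47069 and 36861 CPM. Subclusters 2 and 3 had 86005.5 and 90433 CPM and 87507 and 82597 CPM. Subclusters 7 and 9 had 49650 and 52939 CPM and 40940 and 50139 CPM.

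**Figure D4:**
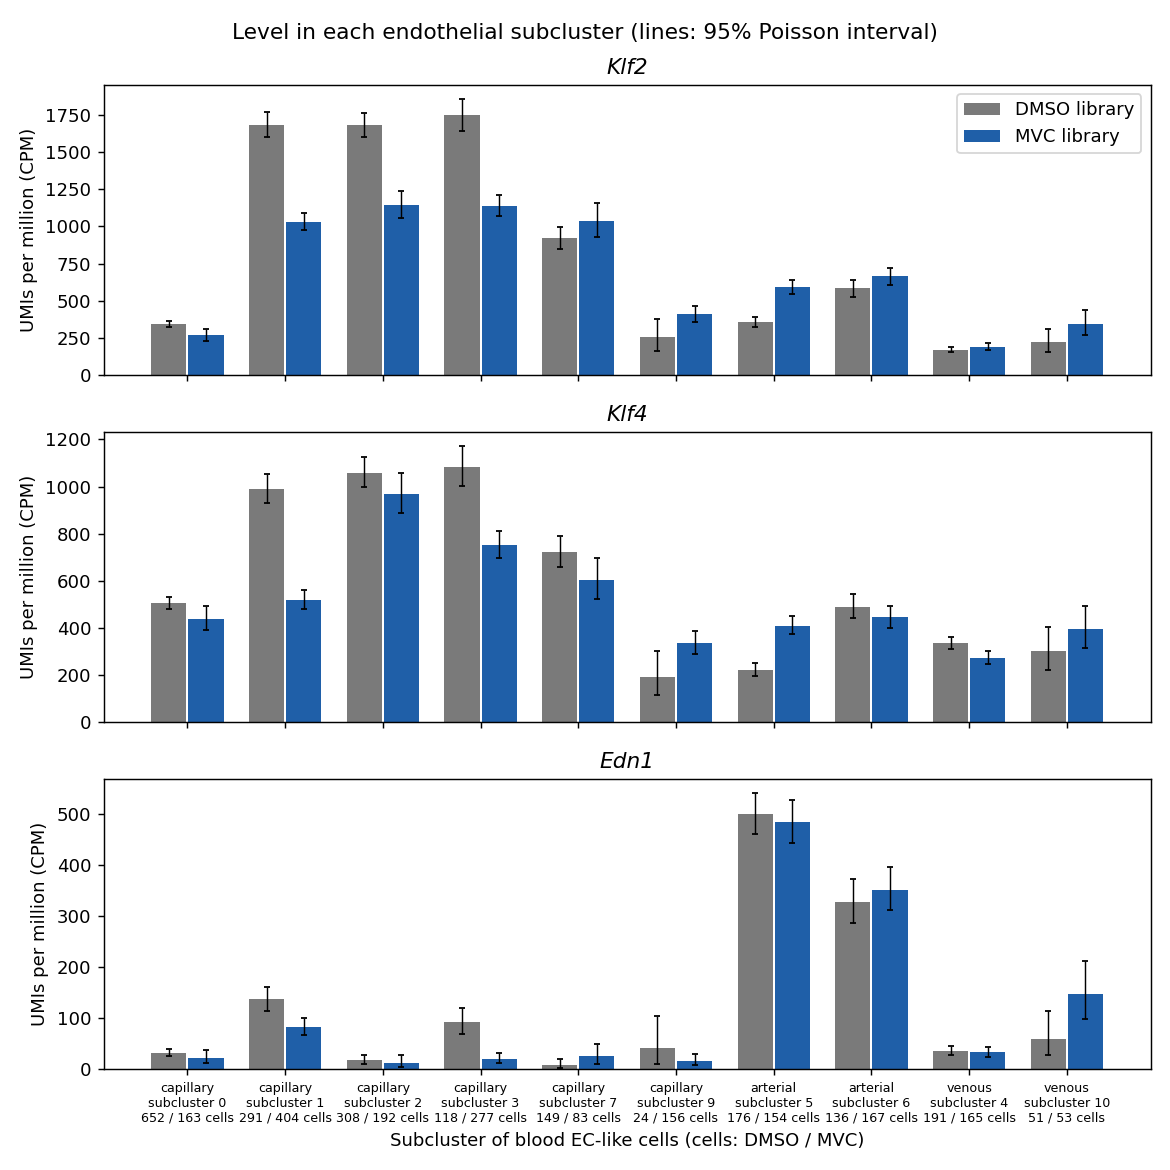
Level of Klf2, Klf4 and Edn1 (y axes, CPM) in the capillary, arterial and venous subclusters of blood EC-like cells (x axis, with the cells of each library), in the DMSO (grey) and MVC (blue) libraries, with 95% Poisson intervals. Klf2 is above 1000 CPM in capillary subclusters 1, 2 and 3 of both libraries, and Edn1 is above 300 CPM in arterial subclusters 5 and 6.

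Nos3, which makes nitric oxide from arginine in endothelium, was an arterial-weighted endothelial gene. Arterial-like cells had 366 CPM in the DMSO library and 306 CPM in the MVC library. Capillary-like (165 and 180.0 CPM) and venous-like cells (177 and 172 CPM) did not differ from each other beyond counting error in either library, and the arterial level stood 2.21-fold (2.0 to 2.44) above the capillary level in the DMSO and 1.70-fold (1.52 to 1.90) in the MVC library. Lymphatic-like cells were lower, at 68.3 and 48.2 CPM. Blood EC-like cells held 89.8% and 83.8% of all Nos3 UMIs. Mural cells held few UMIs, 1 and 12 UMIs in pericyte-like cells, 5 and 1 in SMC/pericyte-like cells and 7 and 23 in SMC-like cells, where Cldn5 was also higher in the MVC library. After thinning a Nos3 UMI was found in 45.2% (39.6 to 51) and 37.3% (31.8 to 43.0) of arterial-like cells and in 0 of the 203 and 90 B cell-like cells, which allows a share of up to 1.478% and 3.33% (3 cells of the number read). Without thinning the arterial-like shares were 65.4% and 57.3% at median depths of 5874 and 5090 UMIs.

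The Nos3 ratio was 0.836 (0.746 to 0.936) in arterial-like, 1.09 (0.989 to 1.2) in capillary-like, 0.976 (0.830 to 1.15) in venous-like and 0.705 (0.414 to 1.18) in lymphatic-like cells, so it was below 1 beyond counting error in arteries alone among these 4. The capillary ratio divided by the arterial ratio was 1.30 (1.12 to 1.5). The lymphatic values rest on 44 and 25 UMIs, and in thinned cells the lymphatic log2 ratio was -1.42 in place of -0.50. The arterial ratio of Nos3 was therefore on the other side of 1 from those of Klf2 and Klf4. This did not hold in both arterial subclusters. Nos3 was at 463 and 351 CPM in subcluster 5, with 176 and 154 cells. In subcluster 6, with 136 and 167 cells, it was at 201 and 244 CPM, with intervals that overlapped. With equal dissociation-gene quartiles the arterial log2 ratio of Nos3 was -0.12 in place of -0.26, and that of Klf4 was -0.0082.

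Of the 16 other genes of nitric oxide synthesis and cGMP signalling, 14 had at least 50 UMIs in blood EC-like cells. Of these 3 had a ratio of at least 1.5 and 0 of at most 1/1.5, with 9.88% of all genes higher and 4.15% lower, and the median log2 ratio was 0.053 beside 0.036 for all genes. The higher ones act downstream of nitric oxide and are known from mural cells: Gucy1a1, a subunit of the nitric oxide receptor guanylate cyclase (5.91 and 11.3 CPM, a ratio of 1.90, interval 1.36 to 2.68), Prkg1, the cGMP-dependent kinase (116 and 176 CPM, a ratio of 1.52, interval 1.40 to 1.64), and Pde5a, which degrades cGMP (7.18 and 11.8 CPM, a ratio of 1.64, interval 1.19 to 2.25). Pericyte markers summed to 391 and 468 CPM in the same cells, with all 10 detected in both libraries, and their part in these ratios was not tested. The cyclase's other subunit Gucy1b1 had a ratio of 1.35 (0.916 to 1.99).

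On the endothelial side, Gch1, which makes the cofactor tetrahydrobiopterin, had 163 and 167 CPM, a ratio of 1.02 (0.952 to 1.10), and Spr, a later enzyme of the same synthesis, had 1.01 (0.848 to 1.21). The caveolar inhibitor Cav1 had 0.982 (0.956 to 1.01), and the Nos3-trafficking proteins Nosip and Nostrin had 0.963 (0.789 to 1.17) and 1.15 (0.771 to 1.70). The arginine transporter Slc7a1 had 148 and 125 CPM, a ratio of 0.846 (0.781 to 0.918). Ddah1 and Ddah2, which clear the inhibitor dimethylarginine, had 0.869 (0.748 to 1.01) and 0.814 (0.701 to 0.942). The inducible synthase Nos2 had 35.5 and 51.2 CPM, a ratio of 1.44 (1.2495 to 1.67).

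In mural cells, where nitric oxide acts, Gucy1a1 and Gucy1b1 were lower in the MVC library in pericyte-like cells, at 948 and 595 CPM, a ratio of 0.627 (0.561 to 0.700), and 848 and 534 CPM, a ratio of 0.630 (0.560 to 0.707). In SMC-like cells they had ratios of 0.860 (0.745 to 0.993) and 1.13 (0.924 to 1.39), and in SMC/pericyte-like cells 1.54 (1.26 to 1.88) and 0.996 (0.778 to 1.27). Prkg1 was at 4679.6 and 5032 CPM, a ratio of 1.08 (1.03 to 1.12) in pericyte-like cells, and at 0.853 (0.798 to 0.912) and 0.994 (0.934 to 1.06) times in SMC-like and SMC/pericyte-like cells. Pde5a had a ratio of 0.866 (0.671 to 1.11) in pericyte-like, 0.670 (0.501 to 0.891) in SMC-like and 1.57 (1.23 to 2.0) in SMC/pericyte-like cells. Cav1 had 0.847 (0.725 to 0.989), 1.41 (1.19 to 1.66) and 1.74 (1.38 to 2.21) in the same order. The remaining readings were Nostrin at 0.867 (0.669 to 1.12) in pericyte-like cells, Ddah2 at 1.01 (0.623 to 1.61) in pericyte-like and 1.60 (0.954 to 2.67) in SMC/pericyte-like cells, and Slc7a1 at 1.13 (0.753 to 1.70), 1.01 (0.626 to 1.63) and 1.49 (1.10 to 2.01) in the 3 mural classes. The pericyte markers themselves summed to 16019 and 12210.0 CPM in pericyte-like cells.

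Edn1, the vasoconstrictor peptide, was the most arterial of the 7 genes. Arterial-like cells had 435 CPM (95% interval 406 to 466) in the DMSO and 428 CPM (95% interval 398 to 459) in the MVC library. Capillary-like cells had 50.1 and 37.7 CPM and venous-like cells 38.4 and 47.3 CPM. The arterial level was 8.68-fold (7.61 to 9.93) above the capillary level in the DMSO and 11.3-fold (9.56 to 13.5) above it in the MVC library, and arterial-like cells, 5.74% and 5.89% of all cells, gave 52.0% and 56.8% of all Edn1 UMIs. Lymphatic-like cells held 15 and 5 UMIs and pericyte-like cells 5 and 4. Arterial Edn1 was uneven among cells, since 26.9% (22.0 to 32.2) and 25.1% (20.3 to 30.4) of thinned arterial-like cells had a UMI and the 3 highest cells held 25.7% and 17.3% of the UMIs. The arterial-like shares without thinning were 42.6% and 38%. In B cell-like cells the thinned share was 0.493% in the DMSO library and 0 of 90 cells in the MVC library, which allows a share of up to 3.33%.

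Arterial Edn1 did not differ between the libraries beyond counting error, with a ratio of 0.982 (0.889 to 1.08). It was 0.752 (0.617 to 0.912) in capillary-like cells and 1.23 (0.885 to 1.72) in venous-like cells, where leaving out the 3 cells highest for it in each library turned the log2 ratio from 0.30 to -0.26. Over all blood EC-like cells the ratio of 1.10 (1.01 to 1.19) became a log2 ratio of -0.14 in thinned cells, in place of 0.14. Within capillaries Edn1 was at 137 and 83.2 CPM in subcluster 1 and 91.7 and 19.5 CPM in subcluster 3, and below 50 CPM in the other 4. Of the endothelin-processing list only Ece1, the enzyme that cuts the precursor to the active peptide, had 50 UMIs. It was at 623 and 528 CPM, a ratio of 0.847 (0.815 to 0.881), in blood EC-like cells, with 1.18 (0.952 to 1.47) in pericyte-like, 1.35 (1.06 to 1.73) in SMC-like and 0.949 (0.744 to 1.21) in SMC/pericyte-like cells.

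The receptor Ednra was a mural gene. SMC-like cells had 359.5 CPM in the DMSO library and 170.1 CPM in the MVC library, pericyte-like cells 263 and 251 CPM and SMC/pericyte-like cells 161 and 255 CPM. In the 2229 and 1898 blood EC-like cells 6 and 12 UMIs were counted. Venous-like cells had 0 UMIs in both libraries, and lymphatic-like cells 0 and 1. SMC-like and pericyte-like cells stood in opposite order in the libraries, since SMC-like cells stood at 1.37-fold (1.14 to 1.64) the pericyte level in the DMSO and 0.678-fold (0.520 to 0.879) in the MVC library.

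Ednra was at 0.473 (0.363 to 0.611) of the DMSO level in SMC-like cells and at 1.59 (1.245 to 2.03) in SMC/pericyte-like cells, while pericyte-like cells were at 0.953 (0.791 to 1.15). The SMC/pericyte-like log2 ratio of 0.67 was 0.25 in thinned cells and 0.19 with equal dissociation-gene quartiles, neither past the 1.5-fold mark. A UMI was found in 45.9% (33.1 to 59.2) and 23.9% (12.6 to 38.8) of thinned SMC-like cells, and in 34.4% (28.2 to 41.0) and 36.1% (28.3 to 44.5) of pericyte-like cells. Without thinning the pericyte-like shares were 53.2% and 39.7%, at median depths of 3808 and 2473 UMIs. Thinned B cell-like cells gave 0 of 203 and 0 of 90, which allows shares of up to 1.478% and 3.33%. In SMC-like cells without thinning, at median depths of 9788 and 9827 UMIs, the shares were 73.8% and 76.6%, so only the thinned share was lower in the MVC library. FAP-like cells, with 29 and 86 UMIs or 2.27 and 6.33 CPM, were far below the mural classes.

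Ednrb, in contrast, was shared by pericytes, smooth muscle, endothelium and macrophages. Pericyte-like cells were highest at 1364 CPM (95% interval 1295 to 1435) in the DMSO and 877 CPM (95% interval 813 to 945) in the MVC library. SMC-like cells had 398 and 512 CPM, macrophage/monocyte-like cells 314 and 349 CPM and lymphatic-like cells 289 and 183 CPM. Capillary-like (160.3 and 149 CPM) and arterial-like cells (144 and 137 CPM) did not differ from each other beyond counting error. Venous-like cells were the low endothelial class, at 12.6 and 26.1 CPM, from 25 and 42 UMIs, and the capillary level was 12.7-fold (8.56 to 19.7) and 5.72-fold (4.18 to 8.01) above it. A UMI was found in 74.6% (68.3 to 80.1) and 65.3% (56.9 to 73.0) of thinned pericyte-like cells, against 0.985% and 1.11% of B cell-like cells, and in 84.8% and 68.2% of pericyte-like cells without thinning.

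Pericyte Ednrb was lower in the MVC library, with a ratio of 0.643 (95% counting interval 0.587 to 0.704), and lymphatic Ednrb had 0.634 (0.490 to 0.816). It was 1.29 (1.07 to 1.54) in SMC-like and 2.07 (1.23 to 3.55) in venous-like cells, and within counting error of 1 in capillary-like (0.932, interval 0.842 to 1.03) and arterial-like cells (0.955, interval 0.801 to 1.14). The pericyte ratio divided by the SMC ratio was 0.50 (0.410 to 0.610). The SMC value depended on the processing, since its log2 ratio of 0.36 was -0.052 from per-cell levels and -0.18 with library-centred clusters. The ratio in SMC/pericyte-like cells, 2.37 (1.73 to 3.26), rested on a single MVC cell that held 97 of the 99 UMIs. Without the 3 cells highest for the gene in each library no UMI of it was left in the MVC cells of that class, and the mean of per-cell levels gave a log2 ratio of -0.52 in place of 1.24. The pericyte-like cells also differed between the libraries in depth (medians of 3808 and 2473 UMIs), in mitochondrial UMIs (19409 and 24152 CPM), in the dissociation genes, in Rgs5 (9235 and 6679 CPM) and in erythroid genes (6063 and 51.7 CPM, with 5 and 4 of 6 detected). Ednrb in thinned pericyte-like cells was itself higher in the highest than in the lowest dissociation-gene quartile. It went from 756 to 1711 CPM in the DMSO and from 667 to 1024 CPM in the MVC library. The log2 ratio of pericyte Ednrb ran from -0.78 to -0.52 under the 9 alternatives, none of which weighted cells by Rgs5 or the erythroid genes. The part of these differences in the Ednrb ratio was not tested.

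Thbd, the thrombin receptor that turns thrombin into an activator of protein C, was not an endothelial gene alone. Its highest class was SMC/pericyte-like, at 557 CPM in the DMSO library and 401 CPM in the MVC library. Among blood ECs it was at 245 and 246 CPM in capillary-like, 219.5 and 227 CPM in venous-like and 159.9 and 221 CPM in arterial-like cells, and capillary-like and venous-like cells did not differ beyond counting error in either library. The arterial level was below both in the DMSO library, with intervals that did not overlap. Pericyte-like (10 and 20 UMIs) and SMC-like cells (13 and 15 UMIs) had little, so Thbd set the SMC/pericyte-like class apart from both mural types. FAP-like cells, at 228 and 164 CPM, held 46.1% and 47.3% of all Thbd UMIs against 36% and 39.9% from blood EC-like cells.

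Like Klf2 and Klf4, Thbd was higher in the MVC library in arterial-like cells, with a ratio of 1.38 (95% counting interval 1.19 to 1.61). With equal dissociation-gene quartiles its arterial log2 ratio was 0.31 in place of 0.47, beside 0.19 for Klf2 and -0.0082 for Klf4. From the lowest to the highest quartile arterial Thbd went from 128 to 286 CPM in the DMSO and from 153 to 266 CPM in the MVC library. Thbd was within counting error of 1 in capillary-like (1.0, interval 0.927 to 1.09) and venous-like cells (1.03, interval 0.898 to 1.19). It was lower in the MVC library in SMC/pericyte-like cells (0.721, interval 0.610 to 0.849) and lowest, relative to DMSO, in lymphatic-like cells. There it stood at 287 CPM in the DMSO library and 94.4 CPM in the MVC library, a ratio of 0.329 (0.235 to 0.453), on 185 and 49 UMIs, and 3 DMSO cells held 54.1% of the UMIs. Without the 3 highest cells of each library the log2 ratio was -1.16 in place of -1.61. FAP markers summed to 334 and 1123 CPM in lymphatic-like cells, with 7 of 10 detected in the DMSO and 10 of 10 in the MVC library; Pi16, Cxcl14 and Clec3b were at 0 in the DMSO library.

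Among the other anticoagulant genes 1 passed the 1.5-fold mark in blood EC-like cells. Of 9 listed, 8 were read, 1 had a ratio of at least 1.5 and 0 of at most 1/1.5, with a median log2 ratio of 0.049. Of all genes 9.88% were past the mark upwards and 4.15% downwards. Procr, the protein C receptor that works beside thrombomodulin, had 241 and 243 CPM, a ratio of 1.01 (0.952 to 1.07), and the cofactor Pros1 0.945 (0.879 to 1.02). The gene past the mark was Gas6, a ligand of the TAM receptors related to protein S, at 55.8 and 103 CPM, a ratio of 1.85 (1.66 to 2.06). In thinned cells a Thbd UMI was found in 21.0% (16.6 to 26.0) and 28.7% (23.7 to 34.2) of arterial-like cells and a Klf2 UMI in 38.4% (32.9 to 44.1) and 46.9% (41.1 to 52.7), with intervals that overlapped for both. Without thinning the arterial-like shares were 41.3% and 49.5% for Thbd and 55.1% and 62.6% for Klf2. In thinned B cell-like cells the Thbd share was 1.478% and 3.33%.

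Whether the genes were found in the same cells was read in cells thinned to 2000 UMIs. Klf4 was found more often in cells that had Klf2. In capillary-like cells a Klf4 UMI was present in 62.4% (58.8 to 65.9) of the 758 cells with a Klf2 UMI and 42.7% (38.9 to 46.7) of the 648 cells without in the DMSO library, and in 56.4% (52.2 to 60.5) of the 564 cells with a Klf2 UMI and 39.4% (34.6 to 44.4) of the 401 cells without in the MVC library. Arterial-like DMSO cells gave 49.6% (40.2 to 59.0) of the 117 cells with a Klf2 UMI and 23.4% (17.6 to 30.1) of the 188 cells without. A Nos3 UMI was present in 20.3% (17.5 to 23.4) of the 758 cells with a Klf2 UMI and 26.5% (23.2 to 30.1) of the 648 cells without among DMSO capillary-like cells, and the intervals overlapped both there and in the MVC library (25.5% and 29.7%). Thbd in the same DMSO cells was found in 31.7% (28.4 to 35.1) of the 758 cells with a Klf2 UMI and 28.1% (24.7 to 31.7) of the 648 cells without, with overlapping intervals. Cells of 1 library are not replicates, and in these 2 classes both factors were higher in the highest dissociation-gene quartile.

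The wider pathway was read over all blood EC-like cells. Of 74 genes in the 7 lists other than the dissociation list, 10 had a ratio of at least 1.5 and 3 of at most 1/1.5, which is 13 of 74 beside the 14.0% of all genes. Genes named below that fall outside the naming rule of the methods were chosen after their values were seen. Upstream of Klf2 and Klf4, 17 genes of flow sensing and the MEKK3-ERK5-MEF2 cascade had a median log2 ratio of 0.12. The kinase MEK5 (Map2k5) had 30.6 and 46.1 CPM, a ratio of 1.51 (1.29 to 1.76), and its target ERK5 (Mapk7) had 13.7 and 8.34 CPM, a ratio of 0.610 (0.449 to 0.823), on 141 and 66 UMIs. The channel Piezo1 had 1.02 (0.979 to 1.07), the junction proteins Pecam1 and Cdh5 0.882 (0.858 to 0.906) and 0.878 (0.854 to 0.902), and the kinase MEKK3 (Map3k3) 1.22 (1.12 to 1.32). The list's members thus lay on both sides of 1, 11 above and 6 below.

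Among 10 other Kruppel-like factors Klf12, a repressor, had 100 and 182 CPM, a ratio of 1.82 (1.68 to 1.97), and Klf16 had 12.3 and 7.46 CPM, a ratio of 0.606 (0.437 to 0.831). Klf6 and Klf10, which respond to injury and TGF-beta, had 0.979 (0.949 to 1.01) and 0.732 (0.677 to 0.793). Of 10 genes known to be raised by laminar flow or Klf2, 2 were past the mark upwards and 1 downwards. Of all genes 9.88% were past it upwards and 4.15% downwards. Tfpi2, a protease inhibitor, had 7.08 and 14.2 CPM, a ratio of 2.0 (1.476 to 2.72), and Ass1, which recycles arginine, 12.6 and 20.9 CPM, a ratio of 1.65 (1.31 to 2.10). The gene past it downwards was Cyp1a1, a target of the aryl hydrocarbon receptor, with 13.8 and 8.72 CPM, a ratio of 0.634 (0.468 to 0.851). The water channel Aqp1 was at 2700.5 and 1838 CPM, a ratio of 0.681 (0.667 to 0.694), the haem oxygenase Hmox1 at 2241 and 1529 CPM, a ratio of 0.682 (0.668 to 0.698) and the lipid phosphatase Plpp3 at 566 and 631 CPM, a ratio of 1.12 (1.07 to 1.16).

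Of 14 other vasoactive genes, 2 had a ratio of at least 1.5 and 0 of at most 1/1.5, with 9.88% of all genes higher and 4.15% lower. The apelin receptor Aplnr had 7.18 and 20.2 CPM, a ratio of 2.82 (2.13 to 3.77), and the potassium channel Kcnj8, a mural gene, 2.42 and 4.55 CPM, a ratio of 1.88 (1.10 to 3.26). The adrenomedullin receptor Calcrl had 1.42 (1.34 to 1.51) and its ligand Adm 1.46 (1.28 to 1.67), while the angiotensin-converting enzyme Ace had 0.773 (0.693 to 0.861). In the dissociation list 2 of 33 were past the mark upwards and 1 downwards, namely Ccn1 (1.66, interval 1.58 to 1.76), Egr2 (1.52, interval 1.31 to 1.77) and Myc (0.633, interval 0.574 to 0.696).

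**Figure D5:**
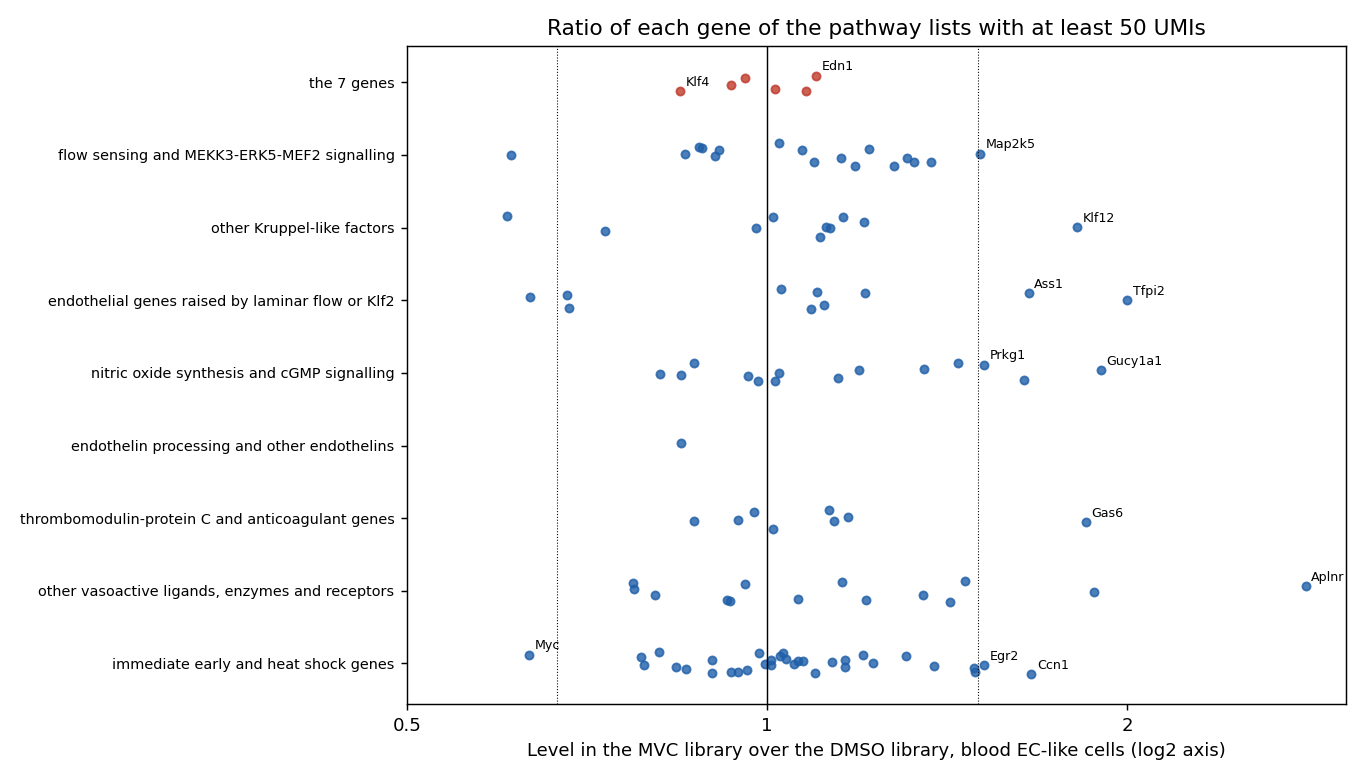
Level in the MVC library over that in the DMSO library in blood EC-like cells (x axis, log2) for each gene with at least 50 UMIs, by list (y axis), with the 6 of the 7 genes that were read in red, 1 library per group. Dotted lines mark 1.5 and 1/1.5, and labelled genes outside the red row meet the naming rule of the methods; the red points lie between 0.846 for Klf4 and 1.10 for Edn1, while Aplnr lies at 2.82.

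The genes whose levels were most like those of the 7 were sought over 15 classes in both libraries, 30 points that share libraries and in part free RNA, among 10382 genes. Pearson's r of log2(CPM + 10) is given as a description. For Klf2 they were Klf3 (r = 0.83), Mylip (0.79) and Irak2 (0.77), and for Klf4 Ddx3x (r = 0.84), Slc39a1 (0.79) and Sgk1 (0.79). For Nos3 they were Mmrn2 (r = 0.97), Rasip1 (0.97) and Sox7 (0.96), all known from endothelium, and for Edn1 Eps8l2 (r = 0.90), Arl15 (0.87) and St6galnac2 (0.87). For Ednra they were Ano1 (r = 0.97), Npy1r (0.97) and Aoc3 (0.96), for Ednrb Zfp467 (r = 0.87), Cbfa2t3 (0.86) and Mef2a (0.80) and for Thbd Bcl3 (r = 0.85), Phf11d (0.82) and Tifa (0.80). Among the 7, Nos3 and Edn1 were the pair most alike (r = 0.83), while Klf2 and Klf4 had r = 0.19 across classes.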

How the data were processed

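Limb-muscle mononuclear cells of 1 DMSO and 1 MVC library were profiled by droplet single-cell RNA-seq. The deposited values are raw UMI counts per gene and cell, which the authors made with Cell Ranger 7.0.0 (file headers). The submitters' processing notes also name Seurat 5.0.1 and mm10, and no value scaled or integrated by the authors was used here. Matrices held 5812 and 6047 barcodes with 39150511 and 36063575 UMIs, and barcodes with 500 genes or more and no more than 10% of UMIs from mitochondrial genes were taken as cells, as in the study's filter. The 9 barcodes shared by both matrices were not removed.

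Counts were scaled to 10000 per cell and logged, 2000 variable genes without the 7 genes and the pathway lists gave 30 principal components, and cells were clustered with leidenalg 0.10.2 (20 neighbours, resolution 1; Python 3.11.15, SciPy 1.17.1, scikit-learn 1.9.0). A cluster was named "-like" where at least 3 markers were raised. Clusters with a median UMI count under 1/3 of that over all kept cells were left unnamed, unless a marker of their class was among their 10 leading genes. A cluster of 181 cells with a median of 1258 UMIs was kept as EC-like in this way. Clusters with over 50% called doublets were also left unnamed. Doublets (236 and 238 called by simulation) were otherwise kept and removed in an alternative.

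Levels are summed UMIs per 1000000 (CPM) with exact Poisson intervals, ratios have exact conditional intervals, ratios of ratios have log-normal counting intervals, and shares of cells have exact Clopper-Pearson intervals, all at 95%. They cover counting error only, and no test between groups was made because each group is 1 library. Cells were thinned to 2000 UMIs for shares, leaving out 447 DMSO and 981 MVC cells below that depth. Among these were 26 DMSO and 95 MVC pericyte-like cells and 136 DMSO and 310 MVC capillary-like cells. The ratio intervals were tried only on simulated Poisson counts, the model that they assume. Such counts hold no extra spread between cells, so the trial cannot speak for genes whose UMIs sit in a few cells. Medians of lists are of log2 ratios of CPM + 10.

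The 7 genes, the marker and pathway lists and the tests were chosen with earlier results of these data known. The text names the 7 genes in each vascular class and, from each list, at most 6 genes past 1.5-fold in blood EC-like cells whose interval lies beyond 1.25-fold. In the nitric oxide and endothelin lists it names each gene with at least 50 UMIs, except 1 that is not reported here. For likeness it names the 3 genes with the highest Pearson r among genes with at least 500 UMIs, over classes with at least 40 cells in each library. Alternatives varied doublets, cell filter, averaging, scaling, thinning and clustering. Those on the 3 highest cells, subcluster weights, dissociation-gene quartiles and the mixed doublet cluster were added after seeing the data.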

Additional observations from a re-analysis of the deposited data

Results flagged for a closer look

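Ratios of MVC over DMSO whose counting intervals lay on opposite sides of 1 in different vascular classes were singled out for a closer look. With 1 library per group the difference between classes was not tested against the spread between mice.

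For Klf2 the ratio was 1.41 in arterial-like and 1.2 in venous-like cells, against 0.874 in capillary-like and 0.468 in SMC-like cells. For Klf4 it was 1.32 in arterial-like and 1.18 in lymphatic-like cells, against 0.788 in capillary-like, 0.866 in venous-like and 0.470 in SMC-like cells. Klf2 and Klf4 thus lay on opposite sides of 1 in venous-like cells. With equal dissociation-gene quartiles the arterial log2 ratios were 0.19 for Klf2 and -0.0082 for Klf4, in place of 0.50 and 0.40. In thinned cells the venous log2 ratio of Klf4 was 0.02 in place of -0.21.

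For Ednra the ratio was 1.59 in SMC/pericyte-like and 0.473 in SMC-like cells. The SMC/pericyte-like class also carried more Acta2 in the MVC library (582 and 1811 CPM), and the part of this in the Ednra ratio was not tested. The ratio of 1.59 was not past 1.5-fold in thinned cells or with equal dissociation-gene quartiles, with log2 ratios of 0.25 and 0.19 in place of 0.67. For Ednrb the ratio was 2.07 in venous-like, 2.37 in SMC/pericyte-like and 1.29 in SMC-like cells, against 0.643 in pericyte-like and 0.634 in lymphatic-like cells. In SMC/pericyte-like cells 1 MVC cell held 97 of the 99 Ednrb UMIs. For Thbd the ratio was 1.38 in arterial-like cells, against 0.721 in SMC/pericyte-like and 0.329 in lymphatic-like cells. Its arterial log2 ratio was 0.31 with equal dissociation-gene quartiles, in place of 0.47.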

How the results depend on the processing

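Of 363 values from 42 log2 ratios (MVC over DMSO) under the alternatives, 316 stayed within the counting interval of the reported ratio and 47 lay outside it. The sign was opposite in 33, most of them ratios close to 1, and 3 of these belonged to a ratio past 1.5-fold. These 3 were Ednrb in SMC/pericyte-like cells, whose 1.24 became -0.52 from per-cell levels, -0.96 in thinned cells and -1.04 with equal dissociation-gene quartiles. 1 MVC cell held 97 of the 99 UMIs there. The share of pericyte-like cells with an Ednra UMI was lower in the MVC library in full cells and 1.74 percentage points higher in thinned cells, at median depths of 3808 and 2473 UMIs before thinning. Thinning left out 26 of the 250 DMSO and 95 of the 239 MVC pericyte-like cells, so the thinned shares are not of the same selection of cells.

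With equal dissociation-gene quartiles the log2 ratio in blood EC-like cells was -0.15 for Klf2, -0.30 for Klf4 and -0.14 for Edn1, in place of -0.10, -0.24 and 0.14, and for Ednra in SMC/pericyte-like cells 0.19 in place of 0.67. In thinned cells Edn1 in blood EC-like cells was -0.14 and Ednra in SMC/pericyte-like cells 0.25. Klf2 in blood EC-like cells was -0.037 without doublets and -0.16 with scaling by the median ratio. Per-cell levels gave -0.78 for Ednrb in pericyte-like cells (-0.64 as reported) and -0.052 in SMC-like cells (0.36), where library-centred clusters gave -0.18. The stricter cell filter gave -1.53 for Ednra in SMC-like cells (-1.08). Pathway genes past 1.5-fold in blood EC-like cells numbered 8 with at least 200 UMIs and 13 with at least 50, and fewer genes were read at the higher minimum. The causes of the other differences were not tested.

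No paired analysis was possible because each group is 1 library, and no replicate was left out for the same reason. Depth limits Nos3 and Edn1 in mural cells, Ednra in endothelium and Ednrb in venous-like cells, where few UMIs were counted. The lymphatic-like and SMC-like classes held under 80 cells in each library. Nothing here measures the spread between mice, and handling of the 2 samples cannot be told apart from the treatment.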
